A study of Mus musculus with 2 samples.

Results

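Gamma-delta (γδ) lineage T cells were taken from single-cell RNA-seq of mouse colitis-associated tumors. The members were selected on 2 measured values: cells annotated by the authors as T cells that held at least 1 UMI of *Trdc*, the constant gene of the δ receptor chain, and no UMI of *Foxp3*, the transcription factor of regulatory T cells. This gave 198 of 3088 annotated T cells, out of 20312 cells, in the library labelled Mir34a_F/F and 187 of 2649, out of 18571 cells, in the library labelled Mir34a_Mye_KO. They were set beside the annotated T cells of the same library with neither *Trdc* nor *Foxp3*, 2425 and 1864 cells, called comparison T cells here. How many members with a single *Trdc* UMI hold it from free RNA was not tested. How many γδ T cells without a *Trdc* UMI lie among the comparison T cells was not tested either. Annotated T cells with both *Trdc* and *Foxp3*, 8 and 17 cells, were in neither group.

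The study asked what loss of *Mir34a*, the gene of the p53-induced microRNA miR-34a, in myeloid cells does to tumors of the inflamed colon. Each library came from 6 to 8 colitis-associated tumors pooled from 3 mice of 1 genotype. The mice were backcrossed to C57BL/6, were 6 to 10 weeks old at the start, received azoxymethane (AOM) at 10 mg/kg and 3 periods of dextran sodium sulfate (DSS) in drinking water, at 2.5% and, in the third period, 2%, and were killed on day 110. Mice of both genotypes carried floxed *Mir34a* alleles. Those labelled Mir34a_Mye_KO also carried Cre under the LysM promoter, which is active in myeloid cells and not meant to delete *Mir34a* in T cells, and those labelled Mir34a_F/F were littermates without Cre. With 1 library for each genotype there was no test between genotypes, and every interval covers counting error only. The genotype, the pool of mice, the depth and the free RNA of a library cannot be told apart.

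γδ T cells carry a receptor of a γ and a δ chain in place of α and β chains and respond to stress signals and cytokines without the usual presentation of peptides. In mice they arise in waves that differ in the variable segment of the γ chain. Cells with the Vγ6 segment (*Tcrg-V6*) leave the fetal thymus, settle in mucosa, skin and other tissues, and are paired with a δ chain whose variable segment is *Trdv4*, called Vδ1 in an older nomenclature. They are known as sources of interleukin 17A (IL-17A), made after signals from interleukin 1 (IL-1) and interleukin 23 (IL-23), and of amphiregulin, a growth factor for epithelium. Other γδ cells of the gut epithelium carry cytotoxic granules and receptors of natural killer (NK) cells.

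Both variable segments that stood out in these cells are shown by the end of their coding exon, since the joined receptor starts its variable loop there. The 120 bases below were read from the GENCODE M21 transcripts on mm10 (GRCm38), the build of the deposited data, 5′ to 3′ on the plus strand, and the capitals mark the cysteine codon that follows a tyrosine codon and opens that loop. The *Trdv4* stretch lies in the second exon, at chr14:54075396-54075515, and the *Tcrg-V6* stretch in the second exon, at chr13:19190810-19190929.
Trdv4: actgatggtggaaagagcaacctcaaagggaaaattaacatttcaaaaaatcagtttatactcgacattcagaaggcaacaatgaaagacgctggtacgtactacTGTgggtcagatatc
Tcrg-V6: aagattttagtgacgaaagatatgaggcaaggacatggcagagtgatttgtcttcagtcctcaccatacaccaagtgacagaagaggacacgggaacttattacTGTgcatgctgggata

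*Trdc* itself (chr14:54142851-54148868) ranged widely among members. The median was 3 UMIs per cell in the Mir34a_F/F library, with a highest value of 25, and 4 UMIs in the Mir34a_Mye_KO library, with a highest value of 69. Just inside the threshold, 65 and 57 members held a single *Trdc* UMI, and 25 and 50 members held more than 10. Members were 6.41% (95% exact binomial interval 5.57 to 7.33) and 7.06% (6.11 to 8.10) of annotated T cells, but after each T cell was thinned to 1000 UMIs and the rule applied again they were 3.86% and 3.07%. The order of the libraries turned in this setting, and no order is read from it. Members had a median of 4457 UMIs in the Mir34a_F/F library and 9274 in the Mir34a_Mye_KO library, against 3393 and 7906.5 for comparison T cells. Among annotated epithelial cells, which should lack the gene, 0.775% and 0.456% held a *Trdc* UMI at medians of 5315.5 and 6623 UMIs, against 6.67% and 7.70% of annotated T cells at medians of 3548 and 8043 UMIs.

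**Figure D1:**
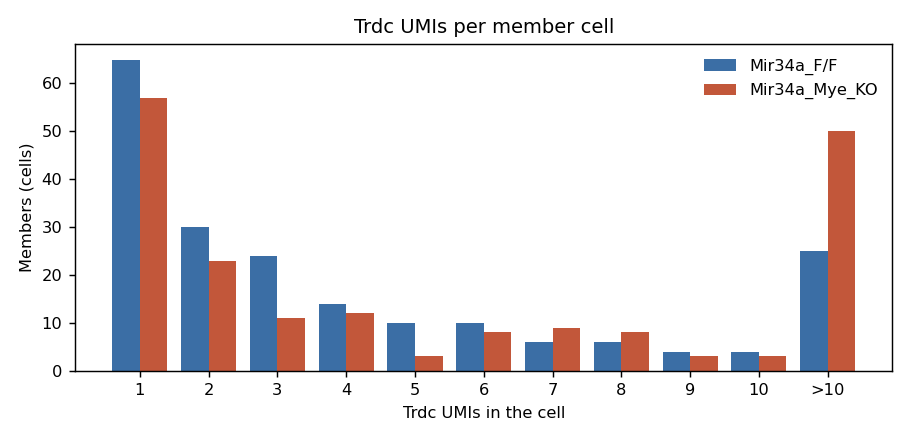
Number of member cells (y axis) by the *Trdc* UMIs they held (x axis), as paired bars for the Mir34a_F/F and Mir34a_Mye_KO libraries. The tallest bars are the 65 and 57 members with 1 UMI, and the last bars are the 25 and 50 members with more than 10.

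Members with a single *Trdc* UMI carried fewer other γδ transcripts than the rest. *Trdv4* UMIs were found in 13.8% and 14.0% of the members with 1 *Trdc* UMI (Mir34a_F/F and Mir34a_Mye_KO, the order kept throughout), in 54.9% and 43.8% of those with 2 or more, and in 1.32% and 1.77% of comparison T cells, which held none. *Tcrg-C1*, a γ constant gene, was found in 38.5% and 26.3% of members with 1 *Trdc* UMI, in 58.6% and 73.1% of those with more, and in 8.04% and 15.0% of comparison T cells. On these 2 genes the cells just inside the threshold lay between both other groups. The share of cells with *Il17a* did too, at 43.1% and 42.1% with 1, 55.6% and 63.1% with more and 24.4% and 31.8% with none. The level of *Il17a* did not follow this in both libraries. At 1, at 2 or more and at 0 *Trdc* UMIs it was, in UMIs per 10000, 13.7, 21.4 and 8.04 in Mir34a_F/F. In Mir34a_Mye_KO it was 7.24, 19.4 and 10.3, so on this measure members with a single *Trdc* UMI were below comparison T cells there. *Trac*, the α constant gene, was found in 21.5% and 38.6% with 1, 24.8% and 35.4% with more and 45.3% and 60.7% with none.

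The label of the cells was set beside receptor and CD3 genes, and whether each member is a γδ T cell was not tested. All levels that follow are UMIs of a gene per 10000 UMIs summed over the cells of a group, each with its 95% exact Poisson interval, and they depend on the 3′ end of each transcript. A UMI of *Cd3e*, *Cd3d* or *Cd3g*, the chains that carry the receptor signal, was found in 93.4% and 89.8% of members and in 72.2% and 74.5% of comparison T cells. Thinned to 1000 UMIs, with members chosen again, these shares were 81.9% and 74.1% against 52.2% and 47.2%. Neither *Cd4* nor *Cd8a*, the coreceptors of αβ T cells, was found in 89.4% and 84.0% of members, against 69.5% and 51.3% of comparison T cells.

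The γ constant genes stood higher in members in both libraries. *Tcrg-C1* (chr13:19214103-19217024) was at 2.40 (2.12 to 2.71) in members and 0.352 in comparison T cells of the Mir34a_F/F library, and at 2.41 (2.20 to 2.63) and 0.391 in the Mir34a_Mye_KO library. The ratio on the log2 scale was 2.77 (2.53 to 3.01) and 2.62 (2.45 to 2.79), nearly the same in both. *Tcrg-C4* followed at log2 ratios of 2.83 and 2.39, and *Tcrg-C2* at 2.71 and 1.19. The annotated transcripts of *Tcrg-C1* and *Tcrg-C2* were identical at 96.0% of 909 aligned bases, so the split of reads between these genes is uncertain, while *Tcrg-C1* and *Tcrg-C4* were identical at 67.3%. *Gm43434*, an annotated antisense gene that overlaps *Trdc* on the other strand, showed log2 ratios of 5.36 and 5.07. The strand setting of the counting is not given in the sources used here, so its reads and those of *Trdc* cannot be told apart.

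Among variable segments, *Trdv4* and *Tcrg-V6* showed the widest gaps. *Trdv4* was at 2.80 (2.49 to 3.14) in members and 0.0387 in comparison T cells of the Mir34a_F/F library, and at 1.76 (1.59 to 1.95) and 0.0244 in the other, a log2 ratio of 6.18 in each. *Tcrg-V6* was at 0.488 (0.364 to 0.639) against 0.00397, a value that rested on 52 UMIs in members and 4 comparison cells with a UMI, and at 0.260 (0.195 to 0.340) against 0.00609. Members thus held 86.9% and 83.1% of all *Trdv4* UMIs of annotated T cells, and 89.7% and 75.7% of those of *Tcrg-V6*, while holding 7.95% and 8.49% of all T cell UMIs. *Trdv4* is part of the same δ chain as *Trdc*, the gene that chose the members, so its share is no separate check of the label. *Trgv2* was found in 25.8% and 25.7% of members at log2 ratios of 2.34 and 1.63, and *Tcrg-V1* in 8.59% and 9.09%. Members held smaller parts of other γ genes. Of the UMIs of annotated T cells they held 33.7% and 26.1% for *Trgv2*, 50.0% and 56.1% for *Tcrg-V1* and 41.3% and 41.0% for *Tcrg-C1*. A *Tcrg-V6* or *Trdv4* UMI was found in 36 and 42 comparison T cells. The remaining segments were rare: *Tcrg-V4* was found in 2 and 9 members, *Trdv5* in 1 and 9, and *Trdv2-2* in 3 and 5. *Tcrg-V7* was found in 1 and 2 members, *Tcrg-V5* in 2 and 1, and *Trdv1* in 1 and 1. A droplet read reaches the variable segment in only part of the transcripts, so a cell without such a UMI may still carry the segment.

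Most members with *Tcrg-V6* also held *Trdv4*. *Tcrg-V6* UMIs were found in 35 and 31 members, and 31 and 30 of these also held *Trdv4*. The other way round, 37.8% and 46.2% of the 82 and 65 *Trdv4* members held *Tcrg-V6*. Of the same members, 31 of 35 and 31 of 31 held *Cd163l1*, a scavenger receptor gene also called *Scart1*, against 40.9% and 36.9% of all members. *Tcrg-C1* was found in 88.6% and 96.8% of the *Tcrg-V6* members.

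Genes of the α and β chains were not absent from members. *Trac*, the α constant gene (chr14:54220521-54224206), was at 0.731 (0.578 to 0.913) in members and 2.29 in comparison T cells of the Mir34a_F/F library, and at 0.692 (0.583 to 0.817) and 2.27 in the other, log2 ratios of -1.64 and -1.71. Epithelial cells, which should lack it, stood at 0.0819 and 0.0583, so the level in members was above that background and below the comparison. *Trbc1* and *Trbc2*, the β constant genes, were close to the comparison at log2 ratios of 0.40 and -0.08 and of -0.38 and -0.33, and a *Trac*, *Trbc1* or *Trbc2* UMI was found in 84.8% and 92.0% of members, more than the 76.2% and 82.6% of comparison T cells, whose median depth was lower. Of the 6 genes of the αβ receptor and coreceptor list, *Trac*, *Cd4* and *Cd8b1* were past -1 in both libraries. *Cd4* was at ratios of -2.76 and -2.59. *Cd8b1*, a CD8 chain gene, was found in 1 and 2 members, with 1 and 12 UMIs, against 118 and 115 comparison T cells. *Cd8a* was at 0.263 (0.174 to 0.379) in 11 members of the Mir34a_F/F library and at 0.0933 (0.0562 to 0.146) in 7 of the other, log2 ratios of -0.31 (-0.92 to 0.25) and -1.90 (-2.64 to -1.24). Thinned to 1000 UMIs per cell, with members chosen again, the second was 0.14, so no direction is read for *Cd8a*.

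**Figure D2:**
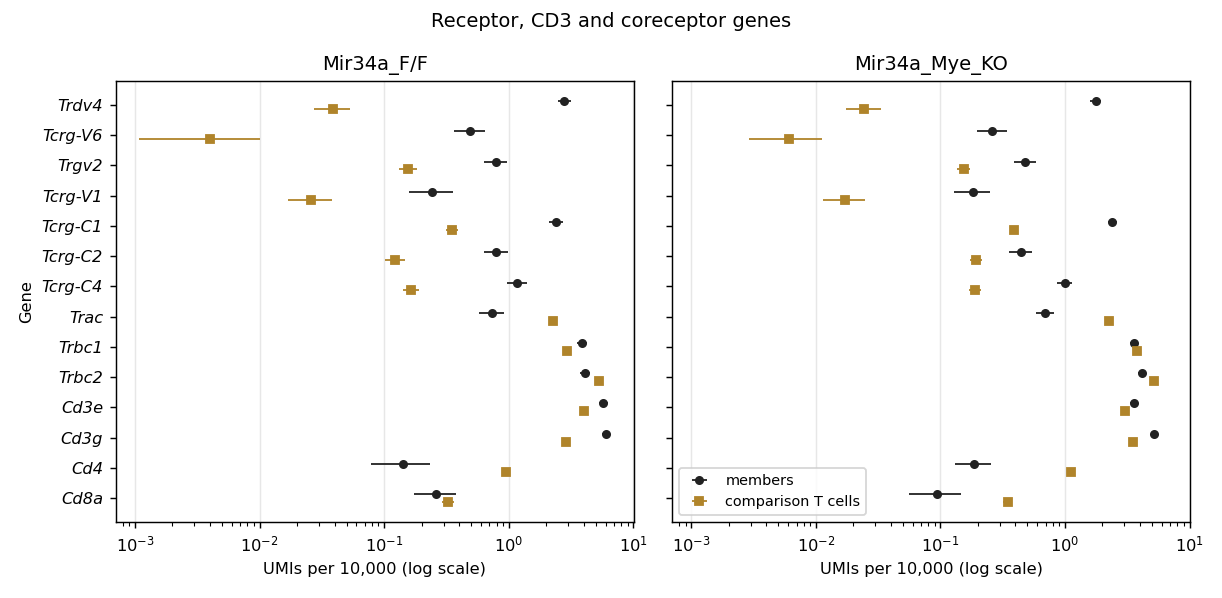
UMIs per 10000 (x axis, log scale) of receptor, CD3 and coreceptor genes (y axis) in members (circles) and comparison T cells (squares) of each library, with 95% exact Poisson intervals. *Trdv4* and *Tcrg-V6* lie farthest apart, at 2.80 against 0.0387 and 0.488 against 0.00397 in the Mir34a_F/F library, while *Trac* and *Cd4* lie lower in members of both.

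Of 6372 genes at a level of at least 0.2 in members or comparison T cells of both libraries, 70 were past a log2 ratio of 1 in members of both libraries, 1.1% of those genes, and 44 were past -1 in both, 0.691%. Thinned, with 116 and 81 members, these counts were 190 and 259, and in the 30 and 15 members without a *Trac*, *Trbc1* or *Trbc2* UMI they were 177 and 247, so the balance of higher and lower genes turned in both settings. The members were chosen by *Trdc* in the same cells, so these counts and all ratios here are descriptions with no test. The 1.1% and 0.691% are the shares to set beside each list count below. After *Trdc*, the genes with the highest ratio were *Trdv4*, *Tcrg-V6*, *Gm43434*, *Cd163l1*, *Cryba4*, *Csgalnact1*, *Blk*, *Abi3bp* and *Ank2*, ranked by the lower of both libraries. Outside the receptor, *Cd163l1* led with 2.08 (1.82 to 2.37) against 0.0874 and 2.47 (2.26 to 2.70) against 0.0420. *Blk*, a kinase of the Src family known from IL-17-producing γδ cells, was at 1.01 (0.831 to 1.22) against 0.0993 and at 1.45 (1.29 to 1.62) against 0.145. *Abi3bp*, the gene of a matrix-binding protein, was at 2.36 against 0.221 and at 3.84 against 0.475.

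The type 17 list holds genes of cells that make IL-17A, and 23 of its 25 genes in the table were at a level of at least 0.2. Higher in members of both libraries by a log2 ratio of 1 were 5 of the 23: *Cd163l1*, *5830411N06Rik* (also *Scart2*), *Blk*, *Zbtb16* and *Ramp1*. *Ccr6*, a chemokine receptor of IL-17-producing cells, was the 1 gene lower in both, at 0.0938 and 0.162 in members against 0.307 and 0.343. The list's median log2 ratio was 0.61 and 0.67, beside -0.01 and 0.00 over all 6372 genes. The list was chosen with earlier results of these data known, so these medians are a description and no test. *Zbtb16*, the gene of the innate-like lymphocyte factor PLZF, showed log2 ratios of 2.26 and 1.18, and *Sox13*, a factor of the γδ lineage, showed 1.33 and 2.50 at low levels of 0.197 and 0.309.

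*Il17a* (chr1:20730905-20734496) was at 19.2 (18.4 to 20.1) in members of the Mir34a_F/F library and 8.04 (7.87 to 8.22) in comparison T cells. In the Mir34a_Mye_KO library it was at 16.3 (15.7 to 16.8) and 10.3 (10.1 to 10.4). The log2 ratio was 1.26 in the first and 0.67 in the second, so *Il17a* passed 1 in a single library. Thinned to 1000 UMIs per cell, with members chosen again, the ratios were 1.88 and 1.55, and among the 30 and 15 members without a UMI of an αβ constant gene they were 1.60 and -2.39. A UMI of *Il17a* was found in 51.5% and 56.7% of members, against 24.4% and 31.8% of comparison T cells and 6.27% and 9.93% of epithelial cells. Members held 19.8% and 15.6% of the *Il17a* UMIs of annotated T cells. Set beside the other classes, members were above comparison T cells with *Cd4* and no *Cd8a*, at 11.9 (11.5 to 12.3), in the Mir34a_F/F library. In the Mir34a_Mye_KO library both were close, at 16.3 (15.7 to 16.8) and 15.4 (15.2 to 15.7). *Cd8a* cells (2.22 and 0.239) and *Foxp3* cells (0.853 and 1.96) were lower in both.

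Most UMIs of the other cytokines of this group lay in few cells. *Il17f* was at 2.08 (1.82 to 2.37) and 3.52 (3.27 to 3.79) in members, log2 ratios of -0.08 and 1.45 over comparison T cells. An *Il17f* UMI was found in 16.2% and 14.4% of members, but the 5 members with most held 59.0% and 66.5% of its UMIs. *Il22*, the gene of a cytokine that acts on epithelium, was at 0.534 and 1.75, log2 ratios of -2.05 and 0.03, and 5 members held 94.7% and 98.6% of it. The ratios of *Il17f* and *Il22* therefore rested largely on a handful of cells, unlike *Il17a*, of which 5 cells held 27.5% and 24.3%.

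Receptors for the signals that drive IL-17A release were measured in the same cells. *Il1r1*, a chain of the IL-1 receptor, was at 1.86 against 0.790 and at 2.43 against 1.37, log2 ratios of 1.23 and 0.83. *Il23r*, a chain of the IL-23 receptor, was at 2.08 against 1.15 and at 2.62 against 2.01, ratios of 0.85 and 0.38. Both lay higher in members in each library, and neither passed 1 in both.

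*Areg*, the gene of amphiregulin, was the repair factor with the highest level. It was at 36.4 (35.3 to 37.6) in members and 7.18 (7.01 to 7.35) in comparison T cells of the Mir34a_F/F library, and at 22.1 (21.5 to 22.8) and 5.31 (5.20 to 5.42) in the other. Log2 ratios were 2.34 and 2.06. *Areg* UMIs were found in 60.1% and 54.0% of members, and members held 28.5% and 22.0% of those of annotated T cells. Epithelial cells, which use the gene themselves, stood at 3.32 and 2.60, and *Foxp3* T cells at 11.1 and 13.1, so members as a whole stood above every other class of T cell in both libraries. The 112 and 121 members without a *Tcrg-V6* or *Trdv4* UMI, taken alone, were at 6.78 and 5.76, below the *Foxp3* T cells. Of the 5 repair genes at a level of at least 0.2, *Areg* was the 1 past a ratio of 1 in both. *Tgfb1* and *Hbegf* showed log2 ratios of 0.39 and 0.39 and of 0.35 and 0.45. Thinned to 1000 UMIs per cell, with members chosen again, the *Areg* ratios were 3.33 and 2.52. The *Areg* ratio turned in 1 alternative: among the 15 members of the Mir34a_Mye_KO library with no *Trac*, *Trbc1* or *Trbc2* UMI it was -1.86, and among the 30 of the Mir34a_F/F library 2.87. None of the 66 members with a *Tcrg-V6* or *Trdv4* UMI in the Mir34a_Mye_KO library was among those 15.

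Of 19 cytotoxic and NK receptor genes, 4 were past a log2 ratio of 1 in both libraries. These were *Gzma* and *Gzmb*, proteases of cytotoxic granules, *Klrk1* (NKG2D), an activating receptor for stress ligands, and *Klrc1* (NKG2A), an inhibitory one. *Gzmb* was at 4.48 (4.09 to 4.90) against 0.956 and at 3.51 (3.25 to 3.77) against 0.876, and was found in 41.9% and 40.6% of members, against 3.21% and 4.36% of epithelial cells. *Gzma* was at 8.53 against 1.81 and at 5.37 against 1.54, yet was found in only 10.6% and 11.8% of members, and 5 cells held 85.9% and 57.0% of its UMIs. *Gzmc* was lower, at ratios of -2.74 and -1.82, with 93.8% and 94.5% of its UMIs in 5 members. Among the 15 Mir34a_Mye_KO members without an αβ constant UMI, the *Gzmb* ratio was -0.84. *Nkg7*, *Prf1* and *Ccl5*, other genes of cytotoxic cells, showed ratios between -0.18 and 0.32.

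**Figure D3:**
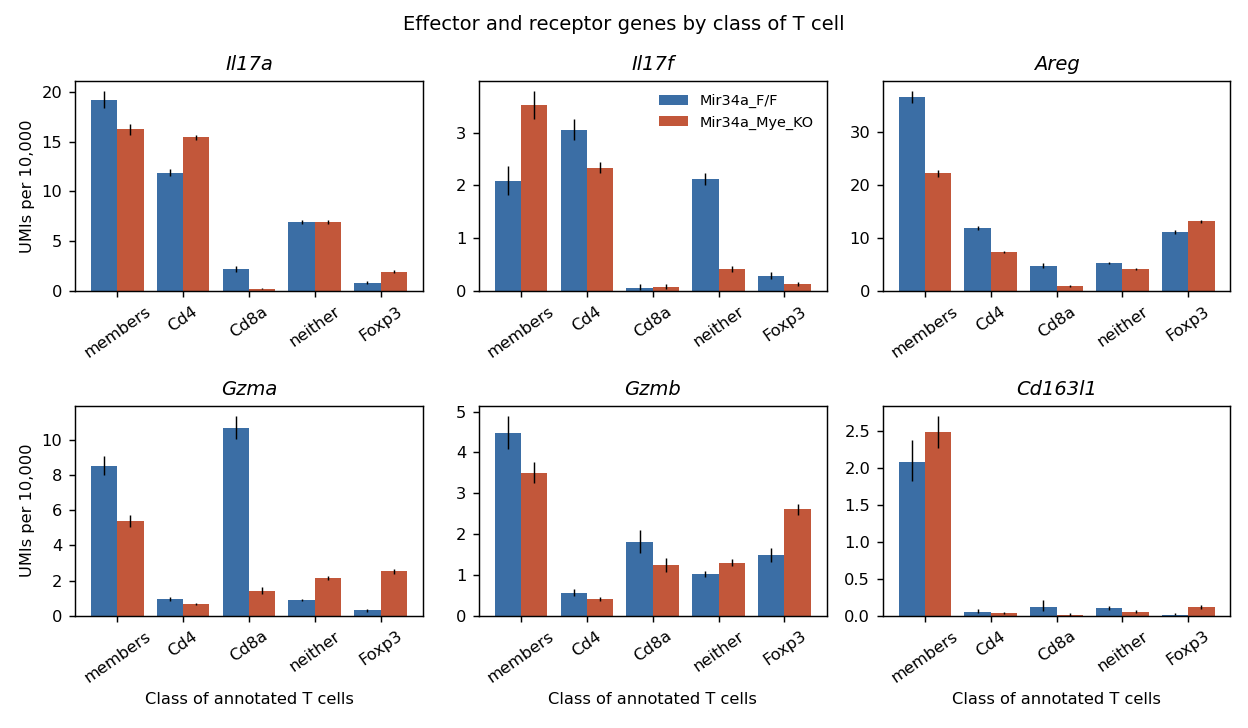
UMIs per 10000 (y axes) of 6 genes in members, in comparison T cells with *Cd4* alone, *Cd8a* alone or neither, and in *Foxp3* T cells (x axes), as bars for each library with 95% exact Poisson intervals. *Areg* is highest in members, at 36.4 and 22.1, and *Cd163l1* is near 0 in all other classes, while *Gzma* of *Cd8a* cells passes that of members in the Mir34a_F/F library.

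Genes lower in members included several of αβ T cell help and co-stimulation. The 10 with the lowest ratio were *Cd4*, *Il1rl1*, *Tnfsf8*, *Cd40lg*, *Cd6*, *St8sia1*, *Tnfrsf4*, *Trac*, *Gm8369* and *Cd5*. *Tnfsf8*, the gene of CD30 ligand, was at 0.544 (0.413 to 0.703) against 3.24 and at 0.997 (0.864 to 1.14) against 5.19. Of 22 checkpoint and activation genes, *Cd28*, *Tnfrsf4*, *Cd5*, *Cd6* and *Cd40lg* were lower in both, and *Pdcd1*, the gene of the inhibitory receptor PD-1, was the 1 higher in both. *Pdcd1* was at 1.83 (1.58 to 2.10) against 0.574 and at 1.49 (1.33 to 1.67) against 0.537. Among the 15 members named above its ratio was -0.55, *Ramp1* was at -0.12 and *Ccr6* at 0.093. In the naive and recirculating list *Ccr7*, a receptor for entry to lymph nodes, was lower in both, and the other 7 of 8 genes did not pass 1 in both libraries. *Il1rl1*, the receptor of IL-33, was the 1 of 7 innate lymphoid genes past 1, at 0.103 and 0.123 in members against 0.580 and 0.674.

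Of 8 tissue residence and homing genes, none passed 1 in both libraries, with a median log2 ratio of 0.56 and 0.41. Over all 6372 genes 1.1% passed 1 and 0.691% passed -1 in both, so finding none in lists this short says little. *Ccr2*, a chemokine receptor, was nearest at 0.96 and 1.09. Of 6 cycling genes, none passed 1 in either direction in both. Of 8 genes the study names as known targets of miR-34a, *Mmp9*, a matrix protease, was past 1, at ratios of 1.25 and 1.40, but 5 members held 46.2% and 72.2% of its UMIs. Of 2 tested genes of ligands for γδ T cells, none passed 1.

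Members differed among themselves by whether a UMI of *Tcrg-V6* or *Trdv4* was found. The 86 and 66 members with a *Tcrg-V6* or *Trdv4* UMI were set beside the 112 and 121 without, a split chosen after the values were seen and given as a description. Median depth was 4702 and 9564.5 UMIs with such a UMI and 4252 and 9071 without, and median *Trdc* was 6.5 and 12.5 UMIs against 2 and 2. Below, members with or without either segment are those with or without such a UMI. Whether their differences go with the segment or with how surely *Trdc* marks a γδ T cell was not tested.

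*Areg* was higher with either segment. Members with either segment were at 74.9 and 49.6, and members without at 6.78 and 5.76, which is close to the comparison T cells of their library. An *Areg* UMI was found in 81.4% and 75.8% of members with either segment and in 43.8% and 42.1% of those without. *Cd163l1* was at 4.09 and 5.88 against 0.531 and 0.447. *Il17a* was at 29.7 and 23.5 against 11.2 and 11.9, so it was higher with either segment but present on both sides. *Gzmb* was at 7.45 and 6.64 against 2.19 and 1.64. *Havcr2*, the gene of the inhibitory receptor TIM-3, was at 1.68 and 2.71 against 0.232 and 0.384. *Zbtb16*, *Il1r1*, *Pdcd1* and *Maf* were on the same side, at log2 ratios between 1.18 and 2.27.

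Members without such a UMI carried other genes. *Il17f* was at 2.91 and 5.16 without and at 1.01 and 0.776 with, and none of the 35 and 31 *Tcrg-V6* members held an *Il17f* UMI, which allows a share of cells with such a UMI of up to 8.57% and 9.68% and sets no limit on cells that use the gene. *Il22* had log2 ratios of -1.24 and -3.18, with over without, but was found in 3.49% of members with and 4.46% without in Mir34a_F/F and in 9.09% and 3.31% in Mir34a_Mye_KO, so its level, held by a few cells, and its share of cells do not go one way. *5830411N06Rik* (*Scart2*), the neighbour of *Cd163l1* on chromosome 7, was at 1.25 and 1.52 without and at 0.108 and 0.408 with, the reverse of *Cd163l1*. The chemokine gene *Ccl5* was at 12.3 and 9.06 without and at 1.55 and 2.49 with, and *Nkg7*, *Cd160*, *Klrd1*, *Xcl1*, *Fcer1g*, *Tcf7*, *S1pr1*, *Themis* and *Cd28* were lower with either segment in both libraries. *Gzma* differed in direction: with over without either segment, its log2 ratio was -2.08 in the Mir34a_F/F library and 2.98 in the Mir34a_Mye_KO library. It was found in 10.5% of members with and 10.7% without in Mir34a_F/F, and in 22.7% and 5.79% in Mir34a_Mye_KO, and the 5 cells with most held 85.9% and 57.0% of its UMIs.

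**Figure D4:**
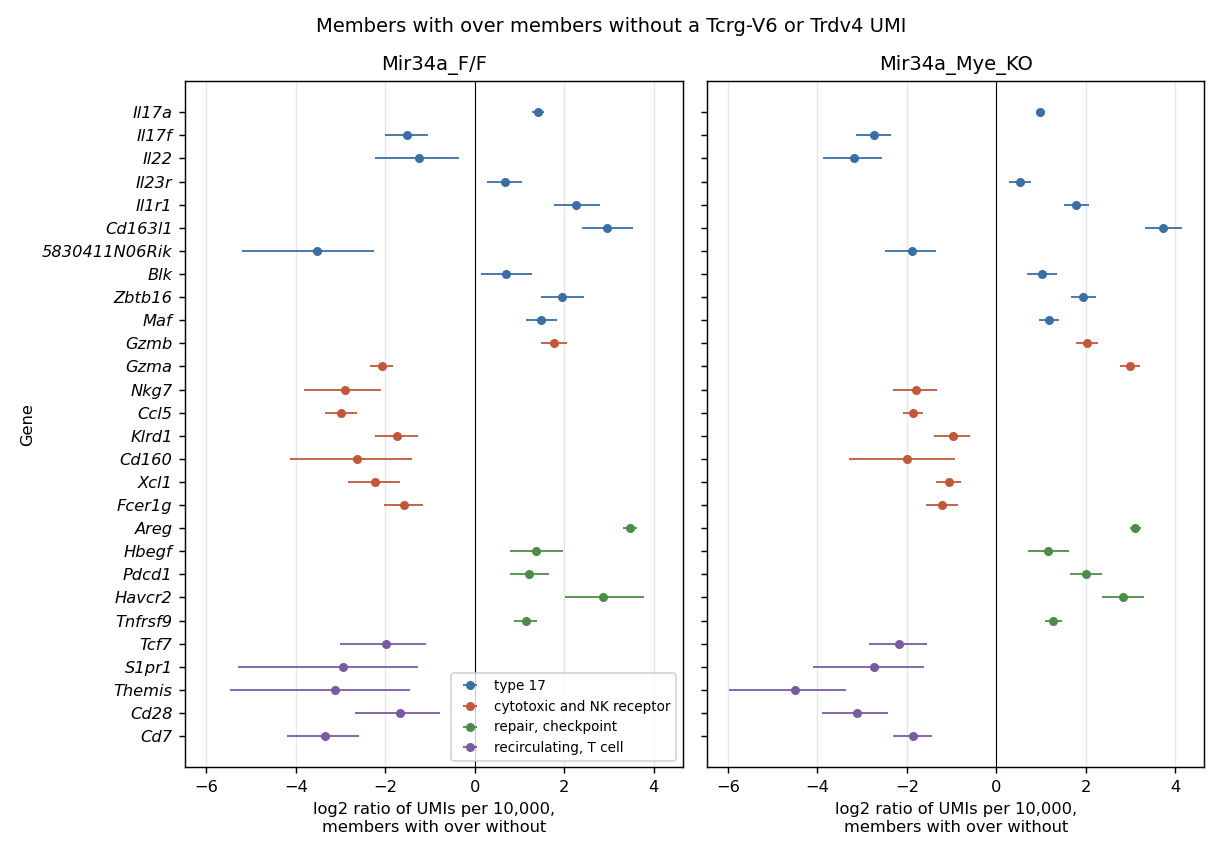
Log2 ratio of UMIs per 10000 in members with over members without a *Tcrg-V6* or *Trdv4* UMI (x axes), with 95% exact intervals, for named genes (y axis) of each library. The genes were picked after their values were seen: *Areg* lies at 3.47 and 3.11, *Il17f* at -1.52 and -2.73, and *Gzma*, with 85.9% and 57.0% of its UMIs in 5 cells, at -2.08 and 2.98.

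To see where members lay among all T cells, annotated T cells of both libraries were clustered without receptor, immunoglobulin and mitochondrial genes and *Foxp3*. Of 15 clusters, numbered by size, cluster 7 held 54.0% (46.8 to 61.1) and 49.7% (42.4 to 57.1) of members and 4.33% and 5.42% of comparison T cells. Members were 50.0% and 46.0% of the cells of cluster 7, whose leading genes were *Ank2*, *Cd163l1*, *Blk*, *Abi3bp* and *Cdh10*. Comparison T cells were 105 of its 214 cells in Mir34a_F/F and 101 of its 202 cells in Mir34a_Mye_KO. Whether they include γδ T cells without a *Trdc* UMI was not tested. Cluster 5, led by *Klra6*, *Cd7*, *Xcl1*, *Klra5* and *Klrb1a*, genes known from NK and innate lymphoid cells, held 22.2% (16.6 to 28.7) and 23.5% (17.6 to 30.3) of members. Whether these members are γδ T cells or NK or innate lymphoid cells was not tested.

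Members with and without a UMI of these variable segments were spread differently over the clusters, with the segment genes left out of the clustering. Of members with a *Tcrg-V6* or *Trdv4* UMI, 76.7% and 75.8% lay in cluster 7 and 4.65% and 7.58% in cluster 5. Of the other members, 36.6% and 35.5% lay in cluster 7 and 35.7% and 32.2% in cluster 5, so cluster 7 held both kinds. Cluster 1, led by *Ccl20*, *Tnc*, *Il17f* and *Il17a* among others, held 28.7% and 26.9% of comparison T cells and 4.55% and 4.28% of members. Cluster 2, led by *Klrg1*, *Il1rl1*, *Ccr8* and *Il10* among others, held 8.16% and 5.85% of comparison T cells and 1.52% and 3.21% of members. Whether comparison T cells include regulatory T cells without a *Foxp3* UMI was not tested. Cluster 6, with leading genes of absorptive epithelium such as *Ceacam20*, *Hnf4g* and *Slc5a9* and median depths of 7807 and 16532.5 UMIs, held 15 and 12 members. Doublets had been removed by the authors, and whether any remained in this cluster was not tested.

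**Figure D5:**
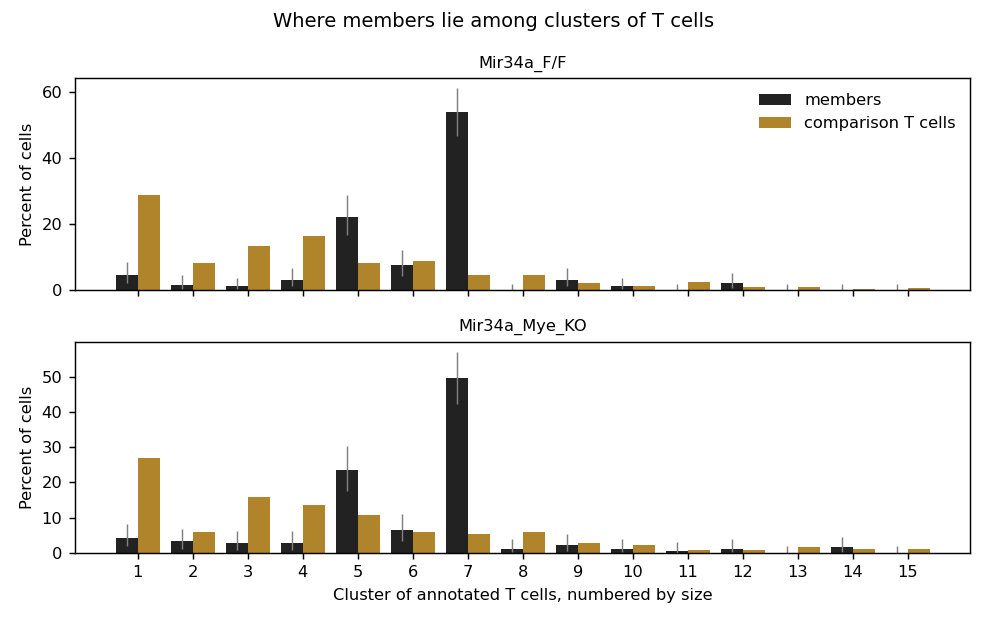
Percent of members (dark bars, 95% exact binomial intervals) and of comparison T cells (ochre bars) in each of 15 clusters of annotated T cells (x axis, numbered by size), one panel for each library. Clusters 7 and 5 hold most members, 54.0% and 22.2% in Mir34a_F/F and 49.7% and 23.5% in Mir34a_Mye_KO.

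Between the libraries, 129 of 6945 genes at a level of at least 0.2 in members of either library were past a log2 ratio of 1 toward Mir34a_Mye_KO, 1.86%, and 224 were past it toward Mir34a_F/F, 3.23%. In members, *Trdc* was at 8.37 (7.83 to 8.94) and 7.21 (6.84 to 7.59). *Tcrg-C1* was level at 2.40 and 2.41, and *Trdv4* lower in Mir34a_Mye_KO, a difference that comparison T cells also showed (log2 ratio -0.67 in both). The log2 ratio of Mir34a_Mye_KO over Mir34a_F/F for *Il17a* was -0.24 in members and 0.35 in comparison T cells. For *Areg* it was -0.72 in members and -0.43 in comparison T cells, and for *Gzmb* -0.35 and -0.13. The size of these ratios in members depended on which cells entered: among the 30 and 15 members without an αβ constant UMI they were -3.64 for *Il17a*, -5.17 for *Areg* and -2.42 for *Gzmb*, and thinned, with members chosen again, -0.13, -0.95 and -0.82. Of the genes named as miR-34a targets, none passed 1 among members. The microRNA's primary transcript, measured by a feature the authors added, had 1 and 2 UMIs in members, too few to check the labels on these cells. In macrophages the same feature was at 0.0683 and 0.139. Whether it lies inside the deleted stretch is not given in the sources used here, so it checks neither the deletion nor the labels. The features for the hairpin, the stem loop and the mature microRNA had no UMI in members, T cells or macrophages.

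Several genes with the largest library ratio in members were markers of other cells or differed in comparison T cells too. *Ighg2c*, *Ighg1* and *Iglc2*, antibody genes of plasma cells, were among the 10 highest in Mir34a_Mye_KO. *Ighg2c* led with a log2 ratio of 3.75 in members, on 3 UMIs in Mir34a_F/F and 77 in Mir34a_Mye_KO. Its ratio was -0.20 in comparison T cells and 3.73 in macrophages. *Ighg1* was at 1.79 in members, 1.26 in comparison T cells and 1.40 in macrophages, and at -0.48 in members after thinning. The summed level of B and plasma cell markers was 21.1 and 41.6 in members and 25.4 and 48.8 in comparison T cells. The summed level of epithelial markers was 34.3 and 19.4 in members and 38.7 and 20.9 in comparison T cells. All 9 epithelial and 9 B and plasma cell markers had UMIs in members of both libraries. The 10 genes highest in Mir34a_F/F, led by *Csrp2*, *Pde9a* and *Fxyd4*, had log2 ratios between -2.11 and -1.77 in members. In comparison T cells these ratios lay between -1.58 and -0.46 for all but *Hist1h2be*, which was level there at -0.01. Of T cell genes, *Themis* (0.347 and 1.15, log2 ratio 1.73) and *Cd28* (0.628 and 1.38, log2 ratio 1.14) were higher in Mir34a_Mye_KO members, and in comparison T cells these ratios were 0.67 and 0.56. Thinned to 1000 UMIs per cell, with members chosen again (116 and 81 cells), the *Cd28* ratio was -0.067, so no direction is read for it. *Fhit* had a log2 ratio of 1.89 in members and 0.05 in comparison T cells. *Il22* and *Ifng*, at 1.71 and 1.55, rested on few cells. The part of free RNA and depth in these ratios was not tested.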

How the data were processed

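Droplet RNA-seq (10x Genomics 3′ v3.1) of pooled tumors was measured in 2 libraries. Cell Ranger 7.2.0 and mm10 are named in the submitters' processing notes. Scrublet was applied against doublets and cell types were assigned before deposit, and this annotation was used unchanged. The authors deposited natural log values, ln(1 + UMIs per 10000), of 32291 genes in 38883 cells. They were turned back into whole UMIs, with no value further than 1.5e-10 from a whole number. 96 barcodes occur in both libraries. Members, lists and named-gene rule were chosen with earlier results of these data known.

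UMIs were summed over cells (Python 3.11.15, scipy 1.17.1) and given per 10000 with 95% exact Poisson, binomial or conditional binomial intervals. Named genes came from 20 lists (235 genes, 221 in the table) and from the 10 highest and 10 lowest ratios, where the higher group had to reach a level of 0.2 and detection in 10% of its cells. Others are said to be chosen later. T cells were clustered with Seurat 5.3.0 (R 4.3.3): integration, 2000 variable genes, 30 dimensions, resolution 0.5. Positions are from GENCODE M21. The calculations were tested on simulated Poisson counts with set ratios, without UMIs gathered in few cells and without selection of members. This checks the arithmetic and not how well the intervals hold for these cells. Alternatives were thinning to 1000 UMIs, at least 2 *Trdc* UMIs, a CD3 UMI, no αβ constant UMI, under 25% mitochondrial UMIs, other totals, means over cells, a pseudocount of 0.1 and other filters. With 1 library per genotype no test between samples was made. A gene of the type 17 list is not reported here.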

Additional observations from a re-analysis of the deposited data

Results flagged for a closer look

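The difference between libraries was not tested for any of the following, since each genotype has 1 library. 4 listed genes lay higher in members than in comparison T cells in one library and lower in the other, each with 95% intervals that left out 0 in both. *Dapl1* had log2 ratios of 1.38 in Mir34a_F/F and -3.38 in Mir34a_Mye_KO, on 16 UMIs in 6 members and 1 UMI in 1 member. *S100a8* had 0.21 and -0.36, and *S100a9* had 0.34 and -0.19, both genes of neutrophils. Summed neutrophil markers were at 8.69 in members and 7.24 in comparison T cells of Mir34a_F/F, and at 4.19 and 4.70 in Mir34a_Mye_KO. *Mcpt2*, a mast cell protease, had 0.41 and -1.01. Of its UMIs, 56.8% lay in 5 members of Mir34a_F/F and 11.1% in 5 members of Mir34a_Mye_KO.

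Outside the annotated T cells, 36 and 37 cells held both *Trdc* and a CD3 UMI. *Trdv4* was found in annotated mast cells: 41 of 732 cells (95% interval 4.05% to 7.52%) at a median of 2951.5 UMIs and 107 of 785 (13.6%, 11.3 to 16.2) at a median of 8456. Their *Trdv4* level was 0.144 and 0.155, against 0.00381 and 0.00372 in epithelial cells, while *Tcrg-V6* was found in 0 and 1 mast cells and *Trdc* in 1 and 14. *Trdc* and *Foxp3* were found together in 8 and 17 annotated T cells, of which 1 and 3 held a *Tcrg-V6* or *Trdv4* UMI and 5 and 14 held *Trac*.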

How the results depend on the processing

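The share of annotated T cells that were members was 3.86% and 3.07% when thinned to 1000 UMIs, 4.31% and 4.91% with at least 2 *Trdc* UMIs and 0.972% and 0.566% without a *Trac*, *Trbc1* or *Trbc2* UMI. Counts past a log2 ratio of 1 are given as genes higher and lower in members in both libraries (70 and 44), then genes higher and lower in Mir34a_Mye_KO within members (129 and 224). They were 45, 24, 43 and 58 at a level of at least 0.5, 434, 181, 832 and 1651 with no filter but a UMI in both groups, and 40, 26, 38 and 52 with a pseudocount of 0.1. They were 190, 259, 1583 and 1648 when thinned, which leaves 116 and 81 members, and 177, 247, 1779 and 1884 in the 30 and 15 members without an αβ constant UMI. With at least 2 *Trdc* UMIs the library counts were 216 and 411. The other alternatives stayed within 1.5 times, among them both groups with a CD3 UMI, an alternative chosen after seeing the data, at 87 and 47.

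Among ratios past 1 in size, signs turned under thinning for *Cd28* (-0.067), *Cd8a* (0.52), *Ccnb2* (0.52) and *Ighg1* (-0.48) between libraries, *Cd8a* (0.14) and *Klrb1c* (-0.46) over comparison T cells in Mir34a_Mye_KO and *Hist1h2be* (-0.85) in Mir34a_F/F. Without an αβ constant UMI they turned for *Ramp1* (-0.12), *Pdcd1* (-0.55), *Fcer1a* (0.36), *Areg* (-1.86), *Gzmb* (-0.84) and *Ccr6* (0.093) in Mir34a_Mye_KO, *Cd160* (-0.95) in Mir34a_F/F, and *S100a8* (0.39) and *Eml6* (-1.10) between libraries. *Il17a* in Mir34a_Mye_KO, below 1 at first, went from 0.67 to -2.39 there. Fewer cells and UMIs enter both settings. Without an αβ constant UMI, none of the 66 Mir34a_Mye_KO members with a *Tcrg-V6* or *Trdv4* UMI remained. Why the signs turned was not tested. The share of members in the cluster that held most was 53.5% and 49.7% at resolution 1.0 and 56.6% and 52.4% without integration. No paired analysis was possible because each genotype has 1 library. Depth limits genes with few UMIs, such as *Tcrg-V6*, with 52 and 53 UMIs in members.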
